A study of Mus musculus with 22 samples.

Results

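Of the 22 whole-pancreas libraries of this mouse series, 14 held newborn-type RNA, and those 14 are compared here by their chemical label: 6 labelled TCDD against 8 labelled control. A library was counted as newborn-type when its summed probe counts for Afp, the fetal plasma protein alpha-fetoprotein, exceeded those for Pnlip, the pancreatic triglyceride lipase of the mature acinar cell, whatever its stage label said. Afp counts ran from 5681 to 29569 in the 14 libraries kept and Pnlip counts from 255 to 1546. In the 8 libraries left out, called adult-type here, Afp counts ran from 0 to 21 and Pnlip counts from 621930 to 936845, so no library lay near the line. The libraries were chosen by these measured counts, which are given as a description only.

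The animals were C57Bl/6 mice. Dams received subcutaneous injections 2 times per week, of corn oil in the control arm or of TCDD, a persistent dioxin and potent ligand of the aryl hydrocarbon receptor, at a daily dose of 20 ng/kg. Dosing began before the mice were mated and ended when they gave birth, so pups met the chemical only through the dam. Whole pancreas was taken on the day of birth from dams and from 1 male and 1 female pup of a litter, and RNA was read by TempO-Seq with probes for the whole mouse transcriptome. In this assay pairs of short detector probes are ligated on each transcript and counted by sequencing. The control-labelled libraries carried 3 litter numbers and the TCDD-labelled libraries carried 4, with none in common.

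The other labels of these libraries went against their RNA in many cases, and this bears on every comparison below. Stage and sex labels both fitted the stage genes and the Y-linked genes in 5 of the 14 libraries (2 labelled control, 3 labelled TCDD), and at least 1 of them did not in the other 9. Among the 14, 4 were labelled as dams (control dams 2 and 4, TCDD dams 6 and 10). Pnlip in these was at 22.3 to 64.4 CPM, and in 3 of them below the lowest pup-labelled library of the 14, at 29.9. Pnlip is 1 of the 2 genes that chose the libraries, so its low level there follows from that choice and is no separate support. Y-linked transcripts (Ddx3y, Eif2s3y, Kdm5d and Uty, present when they summed to 10 CPM or more, CPM being the usual depth-scaled count) were present in 7 libraries, of which 5 were labelled female, and absent in 7, of which 2 were labelled male. The chemical label has no such check of its own in each library. The genes that TCDD is known to act on are described first. A count over the arms is possible: adult-type libraries were 2 among the control-labelled, whose dam labels were 2, 4, 5 and 7. They were 6 among the TCDD-labelled, whose dam labels were 6, 8, 10 and 11. These counts match the dam labels of neither arm, the reason was not tested, and the chemical label is therefore uncertain. Libraries are named below by their labels. The letter of the library codes runs from A to C for the control-labelled and from C to E for the TCDD-labelled libraries. The labels do not say what it stands for, and its part in the results was not tested.

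Library totals ran from 11223816 to 34911410 counts, with a median of 13918771 in the control-labelled and 17496221.5 in the TCDD-labelled libraries. Their means did not differ beyond their spread (exact permutation test over 3003 assignments, two-sided, p = 0.92), but control dam 4 alone held the highest total. The other control-labelled libraries ran from 11223816 to 16059530 counts. The TCDD-labelled libraries ran from 16870352 to 19058507, apart from male pup 6 at 13195400. The number of genes with a count ran from 15008 to 19144 (exact permutation p = 0.934). The 20 most abundant genes took 61.0 ± 3.38% of counts in the control-labelled libraries and 57.7 ± 2.53% in the TCDD-labelled ones (mean ± SD, n = 8 and 6, exact permutation p = 0.048, adjusted over the 4 library properties tested 0.105). Because a few secreted enzymes fill so much of each library, levels below are given as TMM-scaled CPM, with TMM factors of 0.757 to 1.17. Control dam 4 stood apart, with the highest total and the lowest factor. Acinar enzyme genes filled 42.6 to 51.3% of counts in every newborn-type library. In bulk tissue such values cannot tell fewer cells of a type from less RNA per cell. A count of 3, used as a detection floor, came to between 0.0859 and 0.267 CPM, and covers counting error only.

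TCDD acts through the aryl hydrocarbon receptor, AhR, a ligand-activated transcription factor held in the cytoplasm by HSP90 chaperones until a ligand binds. The receptor then enters the nucleus, pairs with ARNT and binds DNA elements with the core GCGTG, from which it induces the cytochrome P450 genes Cyp1a1, Cyp1a2 and Cyp1b1, the ADP-ribosyltransferase gene Tiparp, the quinone reductase gene Nqo1 and its own repressor, Ahrr. At birth the rodent pancreas is in late differentiation: acinar cells make proteases, lipases and amylase, while endocrine cells gather into islets and still divide.

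The core element was looked for in the RefSeq promoters of these genes (GRCm38.p6, 250 bases before to 50 bases after the start of the gene), because it is the sequence through which the receptor is known to act. GCGTG, or CACGC where it lies on the other strand, with no other motif searched, was found in 32.5% of all 27025 promoters and in 50.7% of the 9449 promoters matched to a gene tested here. Of the 28 genes in a list of AhR targets, 21 matched a promoter and 13 of these held the core. The promoters of Tiparp (chr3:65528197-65528496, plus strand) and Cyp1b1 (chr17:79715012-79715311, minus strand) are shown because these genes had the highest TCDD-labelled levels relative to control among the tested genes named above. Each is written 5′ to 3′ on the strand of its gene, with the core in capitals, and each held 1 match, on the strand opposite to the gene.
Tiparp: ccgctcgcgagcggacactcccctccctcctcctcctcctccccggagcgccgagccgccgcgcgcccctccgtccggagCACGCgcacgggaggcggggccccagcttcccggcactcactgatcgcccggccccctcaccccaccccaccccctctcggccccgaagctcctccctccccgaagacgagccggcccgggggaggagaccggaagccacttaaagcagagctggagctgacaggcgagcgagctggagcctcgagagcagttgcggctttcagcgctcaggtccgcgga
Cyp1b1: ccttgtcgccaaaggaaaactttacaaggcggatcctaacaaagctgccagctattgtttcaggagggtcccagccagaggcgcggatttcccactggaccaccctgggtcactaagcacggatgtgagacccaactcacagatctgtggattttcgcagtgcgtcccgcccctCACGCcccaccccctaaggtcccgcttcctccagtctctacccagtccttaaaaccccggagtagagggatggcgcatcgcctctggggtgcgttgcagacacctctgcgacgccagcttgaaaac

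The genes that report AhR activity most directly were at or near the detection floor under both labels. Cyp1a1, the most inducible AhR target, had 0 to 9 counts per library. Its level was 0 to 0.704 CPM in the control-labelled libraries (median 0.0913) and 0 to 0.43 in the TCDD-labelled ones (median 0.169). The highest Cyp1a1 values were in control dam 2 (0.704 CPM) and control female pup 7 (0.645), and the groups overlapped throughout. Cyp1a2 ran from 0.114 to 1.22 CPM in the control-labelled libraries (median 0.402) and from 0 to 0.851 in the TCDD-labelled ones (median 0.476), again with the highest value in control female pup 7. Ahrr had no more than 3 counts in any library and none in 8 of 14. All 3 fell below the low-count filter and were not tested in the main fit.

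Of the AhR genes that passed the filter, none differed by label. Cyp1b1 ran from 0 to 1.32 CPM in the control-labelled libraries (median 0.363) and from 0.284 to 1.64 in the TCDD-labelled ones (median 0.866), with a log2 fold change of 0.89 ± 0.576 (model SE, 95% interval -0.31 to 2.09), which rests on 0 to 27 counts per library. Tiparp, read from 117 to 382 counts, ran from 9.15 to 16.8 CPM under the control label (median 13.9) and from 12.4 to 16.6 under the TCDD label (median 15.1). The TCDD-labelled Tiparp values lay inside the range of the controls but above the 3 lowest controls, and the log2 fold change was 0.20 ± 0.131 (interval -0.07 to 0.47). Nqo1 differed by 0.10 ± 0.190 on the log2 scale. The receptor itself, Ahr, was low in both groups, with medians of 3.80 and 3.79 CPM under the control and TCDD labels, and a log2 fold change of 0.02 ± 0.182. Its partner Arnt had medians of 25.9 and 27.1 CPM and a log2 fold change of 0.04 ± 0.0981.

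**Figure D1:**
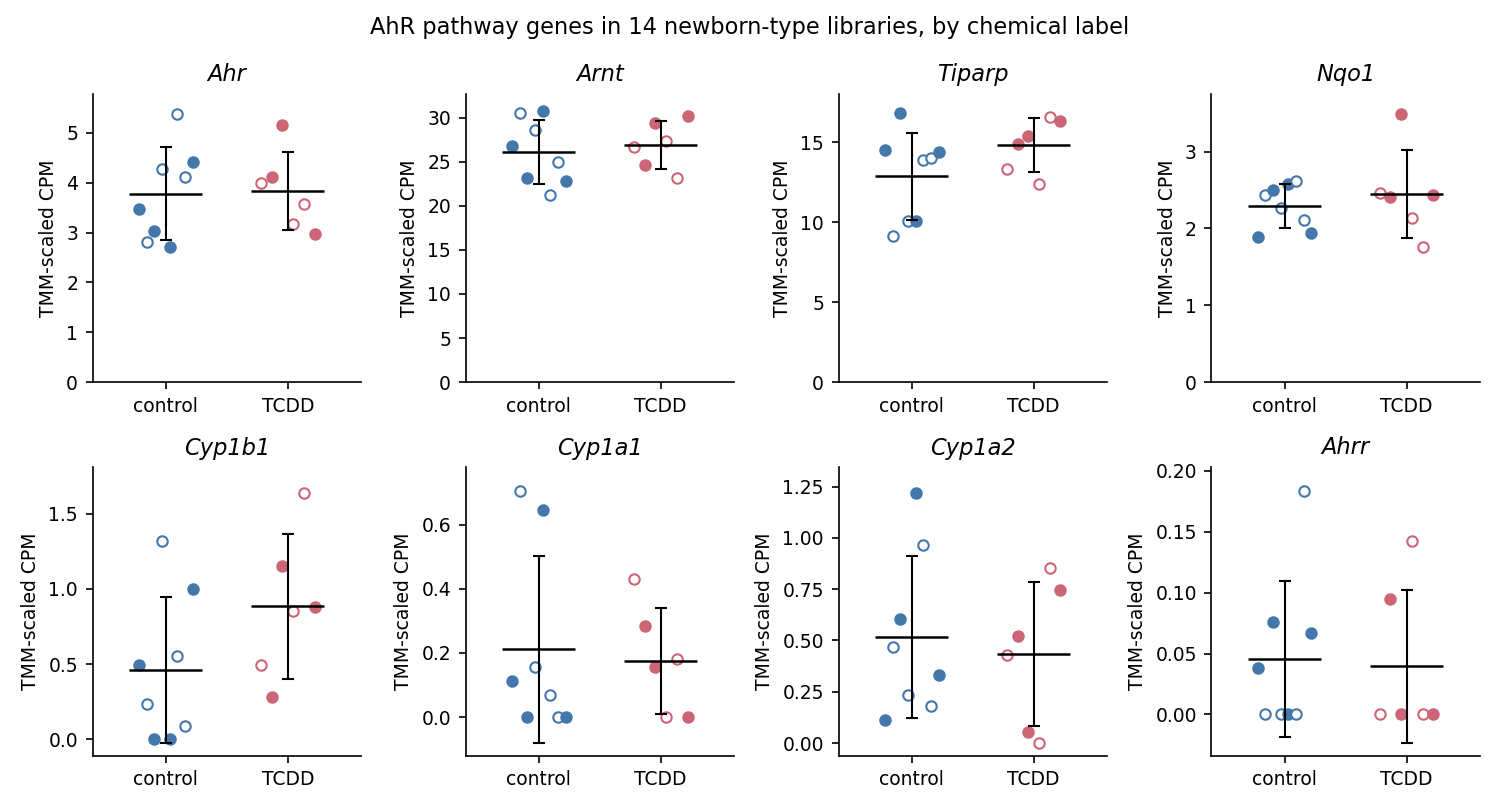
TMM-scaled CPM (vertical axis, linear) of 8 AhR pathway genes in each newborn-type library, 8 labelled control (blue) and 6 labelled TCDD (red); filled points are libraries with Y-linked transcripts, bars give the mean ± SD. The groups overlap for every gene, and Cyp1a1 is highest in a control-labelled library at 0.704 CPM.

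Among 18 of 28 listed AhR targets that passed the filter, none passed the adjusted threshold (0% of all 12226 genes tested passed it), and none had an unadjusted p under 0.05, which 1.66% of all genes reached in the higher and 1.55% in the lower direction. The median log2 fold change of these targets was 0.07, beside -0.0017 over all genes, with values from -0.25 (Ugt1a7c, a glucuronosyltransferase) to 0.89 (Cyp1b1). The abundant conjugating enzymes lay close to 0: Gstp1 differed by -0.07 ± 0.114 and Ugdh by -0.01 ± 0.0826. None of 9 tested genes of the receptor complex and its partners had an unadjusted p under 0.05, and the chaperone genes Hsp90aa1 and Hsp90ab1 differed by -0.13 ± 0.0669 and -0.02 ± 0.0739. The count of targets with an unadjusted p under 0.05 moved under alternatives, and none passed adjustment. Without control dam 4 it was 1 of 18, lower (5.56%, beside 1.92% of all genes). Control dam 4, control female pup 4 and TCDD dam 6 were also left out together, a choice made after seeing the data. There 2 of 17 were higher (11.8%, beside 1.84%) and 1 was lower (5.88%, beside 2.15%). With library totals in place of TMM 2 of 18 were higher (11.1%, beside 9.92%).

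Across the transcriptome no gene differed between the labels. In edgeR's quasi-likelihood test with Benjamini-Hochberg adjustment 0 of 12226 genes passed an adjusted p of 0.05, and the smallest adjusted p was 0.879. At an unadjusted p under 0.05 there were 392 genes (3.21%), of which 203 were higher and 189 lower under the TCDD label. DESeq2 called 1 gene, Noxa1 (log2 fold change -0.48, adjusted p = 0.0481), and limma-voom called 0. With TMM, which centres most genes near 0, 6054 genes lay above and 6172 below 0, so this balance is no result about the label. Scaled by library total alone, the median log2 fold change moved to 0.155 and 85.6% of genes lay above 0 (49.5% with TMM), and 1213 genes were higher and 16 lower at an unadjusted p under 0.05, still with 0 called.

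The intervals give the size of difference that these libraries leave possible. The 95% interval lay within 1 log2 unit of 0 for 91.5% of genes tested, and for 99.7% of the 5727 genes at 10 CPM or more on average. At that level 94.8% of genes had an interval within 0.5 log2 units. All 805 genes at 100 CPM or more had an interval within 1 log2 unit, and their largest absolute log2 fold change was 0.457, beside a median of 0.056. These bounds hold for the labels as given, and p-values measure the spread between animals with few litter numbers.

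**Figure D2:**
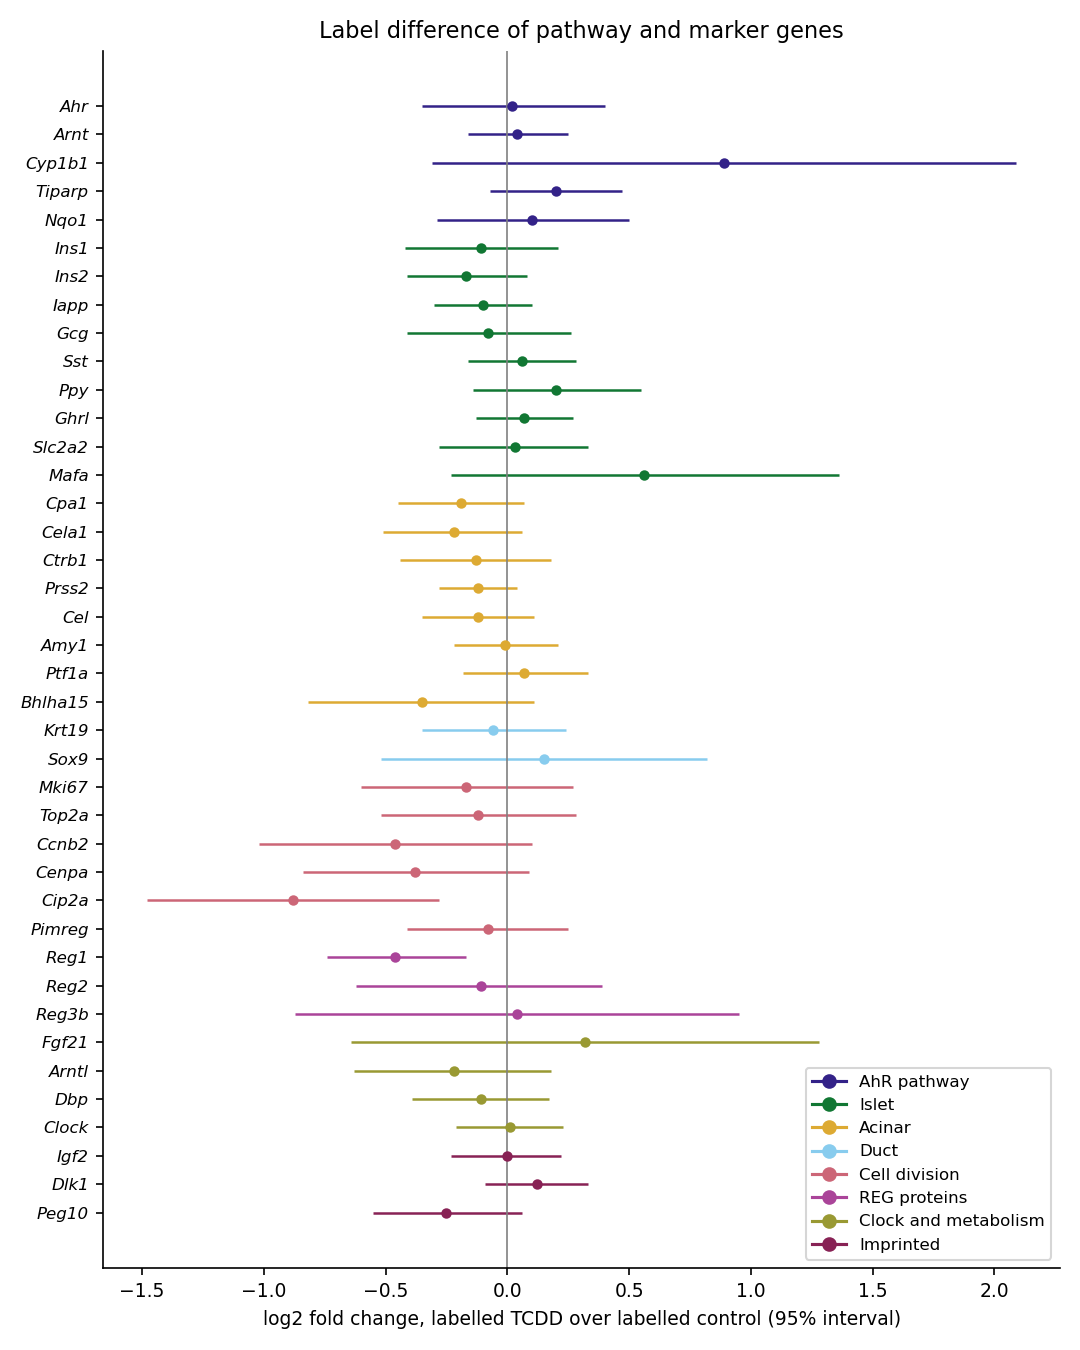
Log2 fold change (horizontal axis, TCDD-labelled over control-labelled, points) with 95% intervals (lines) of tested genes of the AhR pathway, islets, acinar and duct cells, cell division, REG proteins, clock and metabolism, and imprinted genes. The intervals of Reg1 and Cip2a lie below 0 before adjustment over all genes, while Cyp1b1 has the widest interval, from -0.31 to 2.09.

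The 12 genes with the smallest unadjusted p, none of which passed adjustment, were mostly small differences in moderately expressed genes. Noxa1, which encodes an activator of NADPH oxidase, ran from 34.3 to 47.0 CPM in the control-labelled libraries (median 41.7) and from 21 to 31.8 in the TCDD-labelled ones (median 30.5). The groups did not overlap, and its log2 fold change was -0.48 ± 0.0973 (unadjusted p = 7.19e-05, adjusted p = 0.879 in edgeR). TCDD dam 6 was the lowest, at 21 CPM. Pipox, a peroxisomal oxidase of pipecolic acid and sarcosine, ran from 13.7 to 19.6 CPM against 10.3 to 12.8, likewise without overlap, with a log2 fold change of -0.45 ± 0.103. Groups without overlap were rare: 2 genes of 12226 with all TCDD-labelled libraries higher (0.0164%, Gm49388 and L3hypdh) and 4 with all of them lower (0.0327%, Noxa1, Pipox, the Mediator kinase gene Cdk8 and the Golgi tethering gene Cog4).

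The other genes of this group overlapped between the labels. Stk40, a kinase-like gene, was read at a median of 41.7 CPM under the control label and 53.1 under the TCDD label (log2 fold change 0.32 ± 0.0787), and Atf7, a transcription factor of the ATF/CREB family, at 31.1 and 39.2 (0.32 ± 0.0862). P2ry1, a purinergic receptor, had medians of 3.81 and 5.37 CPM (0.52 ± 0.160). Angptl7, a secreted angiopoietin-like protein, had medians of 4.12 and 10.6 CPM and a log2 fold change of 1.02 ± 0.285, with control libraries between 1.66 and 10.6. Prickle3, a planar polarity gene, had the largest value, 1.2 ± 0.318, from 4 to 41 counts per library. On the lower side Dennd1b, an exchange factor for Rab proteins, differed by -0.31 ± 0.0941, B230118H07Rik by -0.51 ± 0.153 and Sapcd1 by -0.88 ± 0.255. Of these 12 genes 10 matched a RefSeq promoter, and 4 of the 10 held the AhR core (Noxa1, Prickle3, Atf7 and P2ry1), or 40%, beside 50.7% of the promoters of genes tested.

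**Figure D3:**
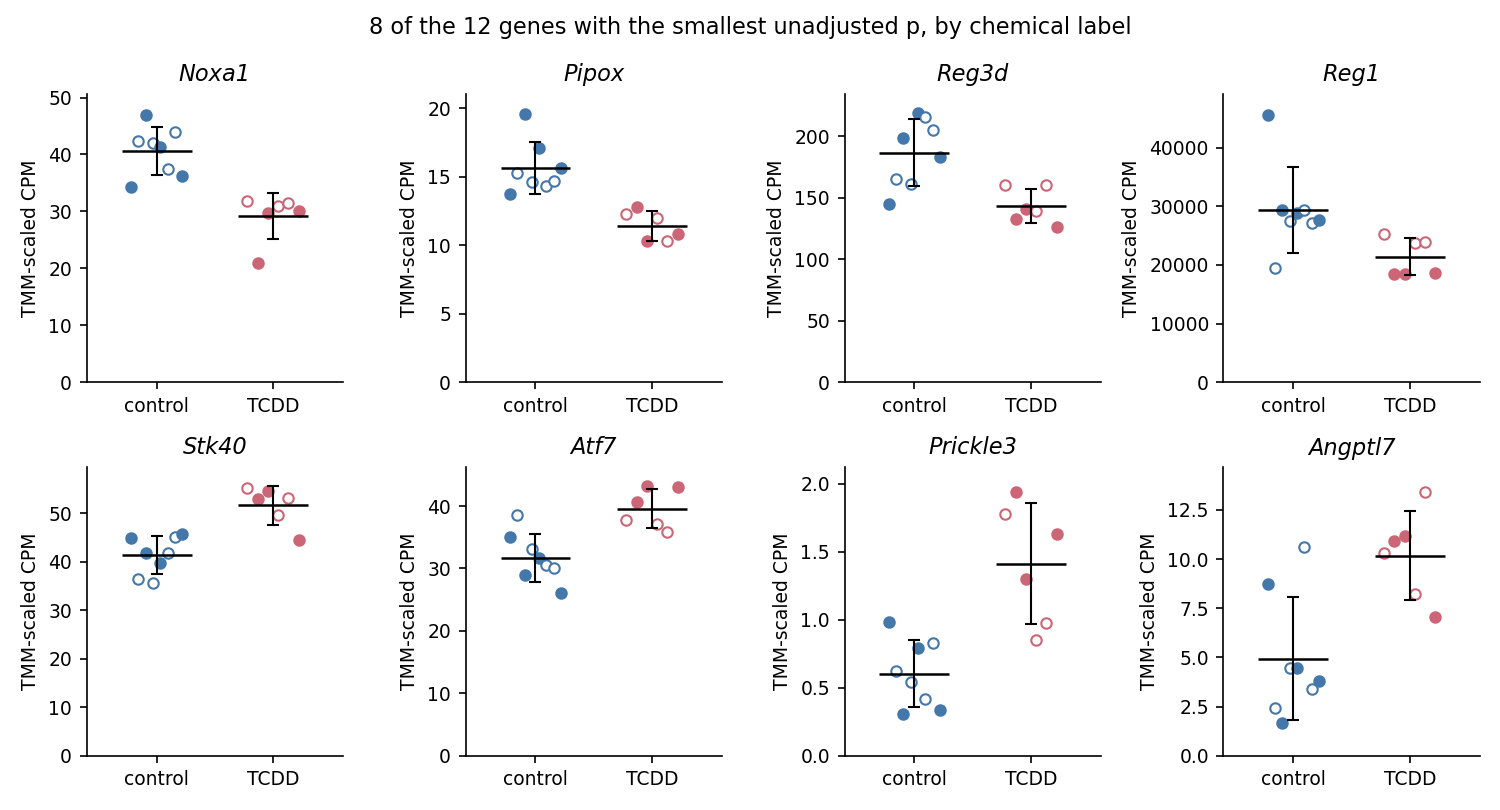
TMM-scaled CPM (vertical axis, linear, from 0) of 8 of the 12 genes with the smallest unadjusted p, by chemical label; filled points are libraries with Y-linked transcripts, bars give the mean ± SD. Noxa1 and Pipox do not overlap between the labels, and Reg1 in control dam 4 stands apart at 45500 CPM.

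Among the lists, that of acinar enzymes held the most genes with a low unadjusted p, all of them lower under the TCDD label. Of 27 tested genes for acinar digestive enzymes 7 had an unadjusted p under 0.05 and a lower level under the TCDD label, or 25.9% beside 1.55% of all genes, and 0 were higher. They included Cpb1 (a carboxypeptidase), Prss1, Prss3 and Try4 (trypsinogens), Rnase1 (a ribonuclease) and Pla2g1b (a phospholipase), and none of the 7 was called after adjustment. Cpb1 ran from 65500 to 120000 CPM in the control-labelled libraries (median 86200) and from 58500 to 80800 in the TCDD-labelled ones (median 64700), with a log2 fold change of -0.36 ± 0.121, and the groups overlapped. Rnase1 differed by -0.28 ± 0.122, Prss3 by -0.26 ± 0.106 and Pla2g1b by -0.24 ± 0.0876. The list's median was -0.13. The summed level of the list was 389000 to 679000 CPM (median 470000) in the control-labelled libraries and 364000 to 484000 (median 404000) in the TCDD-labelled ones.

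This count moved with the libraries and the scaling. Without control dam 4, the highest library of the list, 5 of 27 enzymes (18.5%) were lower at an unadjusted p under 0.05 (beside 1.92% of all genes) and the median was -0.09. Without the 3 libraries lowest in cell division genes (control dam 4, control female pup 4 and TCDD dam 6, a choice made after seeing the data) 2 of 27 were lower (7.41%, beside 2.15% of all genes), with a median of -0.06. With library totals in place of TMM 1 of 27 was lower (3.7%, beside 0.131% of all genes) and the median was 0.02. This scaling moved the median of all genes to 0.155. It moves genes by nearly the same amount, so the list's place below that median follows from the TMM value and is no separate support. Enzymes outside those 7 included Cpa1 at -0.19 ± 0.124, Cela1 at -0.22 ± 0.136, Ctrb1 at -0.13 ± 0.148, Prss2 at -0.12 ± 0.0765, Cel at -0.12 ± 0.111 and Amy1 at -0.01 ± 0.103. Enzymes of 1 family have near-identical transcripts, so probes can share signal within the trypsin, elastase, amylase and REG families, and values of single members are uncertain.

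REG proteins, secreted lectins that rise in pancreatic injury and regeneration, were also read lower in part. Reg1 ran from 19500 to 45500 CPM under the control label (median 28200) and from 18400 to 25200 under the TCDD label (median 21200), with a log2 fold change of -0.46 ± 0.139. Of the control-labelled libraries 7 of 8 exceeded every TCDD-labelled library, and control dam 2, at 19500, was the exception. Reg3d ran from 145 to 219 CPM against 126 to 160 (-0.38 ± 0.0941). These and Il6 (-0.46 ± 0.214, 16 to 47 counts) were the 3 of 10 tested members of the list with an unadjusted p under 0.05, or 30% beside 1.55% of all genes. The count was 3 of 10 without control dam 4 (beside 1.92%), 2 of 10 without the 3 libraries lowest in cell division genes (20%, beside 2.15%), and 2 lower and 1 higher with library totals (beside 0.131% and 9.92%). Reg2 and Reg3b, both under 6 CPM in every library, differed by -0.11 ± 0.243 and 0.04 ± 0.439. The trypsin inhibitor gene Spink1 differed by -0.13 ± 0.0957 and Lcn2, an acute-phase lipocalin, by 0.34 ± 0.218.

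Transcription factors of the exocrine lineage had a median log2 fold change of 0.06. Ptf1a, which drives acinar fate, had medians of 25.4 and 24.4 CPM under the control and TCDD labels (log2 fold change 0.07 ± 0.123), and its partner gene Rbpjl 19.7 and 29.2 CPM (0.29 ± 0.168). Bhlha15, which matures the secretory apparatus, ran from 4.54 to 16.7 CPM and from 5.05 to 10.1 (-0.35 ± 0.225). Gata6 was the 1 member of 12 with an unadjusted p under 0.05, at 0.23 ± 0.103. Duct genes gave 0 of 14 at that level. Among them Krt19 differed by -0.06 ± 0.142 and Spp1, which encodes osteopontin, by -0.11 ± 0.0828, while Sox9 was read from only 3 to 30 counts.

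Islet hormone genes were well expressed and differed little by label. Ins1 ran from 210 to 539 CPM in the control-labelled libraries (median 475) and from 286 to 496 in the TCDD-labelled ones (median 424), with a log2 fold change of -0.11 ± 0.153. The lowest Ins1 value, 210 CPM, was in control female pup 4, and the next control was at 419. Ins2 had medians of 878 and 787 CPM (-0.17 ± 0.117, interval -0.41 to 0.08), and the amylin gene Iapp 194 and 186 CPM (-0.10 ± 0.0964). The glucagon gene Gcg differed by -0.08 ± 0.163, somatostatin Sst by 0.06 ± 0.107 and ghrelin Ghrl by 0.07 ± 0.0952. The pancreatic polypeptide gene Ppy had medians of 117 and 121 CPM and a log2 fold change of 0.20 ± 0.167, which was -0.03 ± 0.130 without TCDD female pup 8, the highest library at 228 CPM. Of 13 hormone and granule genes tested, 1 had an unadjusted p under 0.05, the granule chaperone gene Scg5 at -0.28 ± 0.106, and the list's median was -0.01.

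Genes of beta cell function and of the endocrine lineage had no member under an unadjusted p of 0.05, among 13 and 12 tested. The glucose transporter gene Slc2a2 differed by 0.03 ± 0.146, read at 4 to 7.31 CPM. Mafa, a marker of beta cell maturity, was read from 4 to 34 counts with a difference of 0.56 ± 0.382. Neurod1, Nkx2-2 and Pax6, factors of endocrine differentiation, differed by -0.17 ± 0.116, -0.04 ± 0.120 and 0.04 ± 0.155. The probe for Pdx1 gave 0 counts in all 14 libraries. Ucn3 (0 to 6 counts) and the progenitor factor gene Neurog3 (0 to 15 counts) fell below the filter.

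Genes of cell division were spread more widely between libraries than between labels. Mki67, the proliferation marker Ki-67, ran from 23.4 to 62.4 CPM in the control-labelled libraries (median 44.9) and from 21.3 to 52.1 in the TCDD-labelled ones (median 42), with a log2 fold change of -0.17 ± 0.211. Top2a differed by -0.12 ± 0.193, the mitotic cyclin gene Ccnb2 by -0.46 ± 0.269 and the centromere histone gene Cenpa by -0.38 ± 0.225. Of 34 genes tested 1 had an unadjusted p under 0.05, Cip2a, an inhibitor of protein phosphatase 2A, at -0.88 ± 0.290, and the list's median was -0.12. Without control dam 4 the count was 3 of 34 lower (8.82%, beside 1.92% of all genes, median -0.17). Without control dam 4, control female pup 4 and TCDD dam 6, the 3 libraries lowest in this list's own sum, it was 9 of 34 lower (26.5%, beside 2.15%, median -0.17), and none was called. That choice of libraries used the genes counted, so this count is a description only. Replication genes were close to 0, with Pcna at 0.00 ± 0.122 and Mcm6 at 0.12 ± 0.129.

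In the remaining lists, vessel and stress genes gave at most 1 member each with an unadjusted p under 0.05, which 3.21% of all genes tested had. The endothelial list had a median of 0.18 and 1 of 14 members with an unadjusted p under 0.05, Kdr, the VEGF receptor gene, which ran from 6.02 to 13.0 CPM under the control label and from 9.15 to 15.7 under the TCDD label (0.41 ± 0.171). Fibroblast genes were at a median of 0.01 with 0 of 14, with Col1a1 at 0.14 ± 0.127 and Postn at -0.14 ± 0.0879. Clock genes had a median of 0.19 and 1 of 16, the repressor gene Bhlhe40 (0.31 ± 0.123), while Arntl, Dbp and Clock differed by -0.22 ± 0.195, -0.11 ± 0.133 and 0.01 ± 0.106. Osgin1 (-0.70 ± 0.221, 17 to 61 counts) was the 1 of 17 oxidative stress genes, and Mt2, a metallothionein, the 1 of 13 glucocorticoid response genes (-0.37 ± 0.156). Secretory stress genes gave 0 of 20, with the chaperone gene Hspa5 at -0.06 ± 0.105.

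Genes of metabolism, growth and blood gave no more. Cyp51, of cholesterol synthesis, was the 1 of 19 in its list (0.34 ± 0.147), Ndrg1 the 1 of 14 hypoxia genes (0.25 ± 0.116), Lyz2 the 1 of 9 macrophage genes (0.27 ± 0.127) and the transferrin receptor gene Tfrc the 1 of 6 erythroid genes (-0.31 ± 0.109). Respiratory chain genes (0 of 17) and fatty acid oxidation genes (0 of 18) had medians of -0.06 and 0.04. Imprinted growth genes gave 0 of 14, with Igf2 at 0.00 ± 0.108, Dlk1 at 0.12 ± 0.101 and Peg10 at -0.25 ± 0.147. The hormone gene Fgf21, a reported AhR target, was read from 0 to 22 counts and differed by 0.32 ± 0.461. Over all 38 lists, 21 of the 477 tested genes had an unadjusted p under 0.05, in 13 lists, beside 392 of all 12226 (3.21%), and 0 were called.

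**Figure D4:**
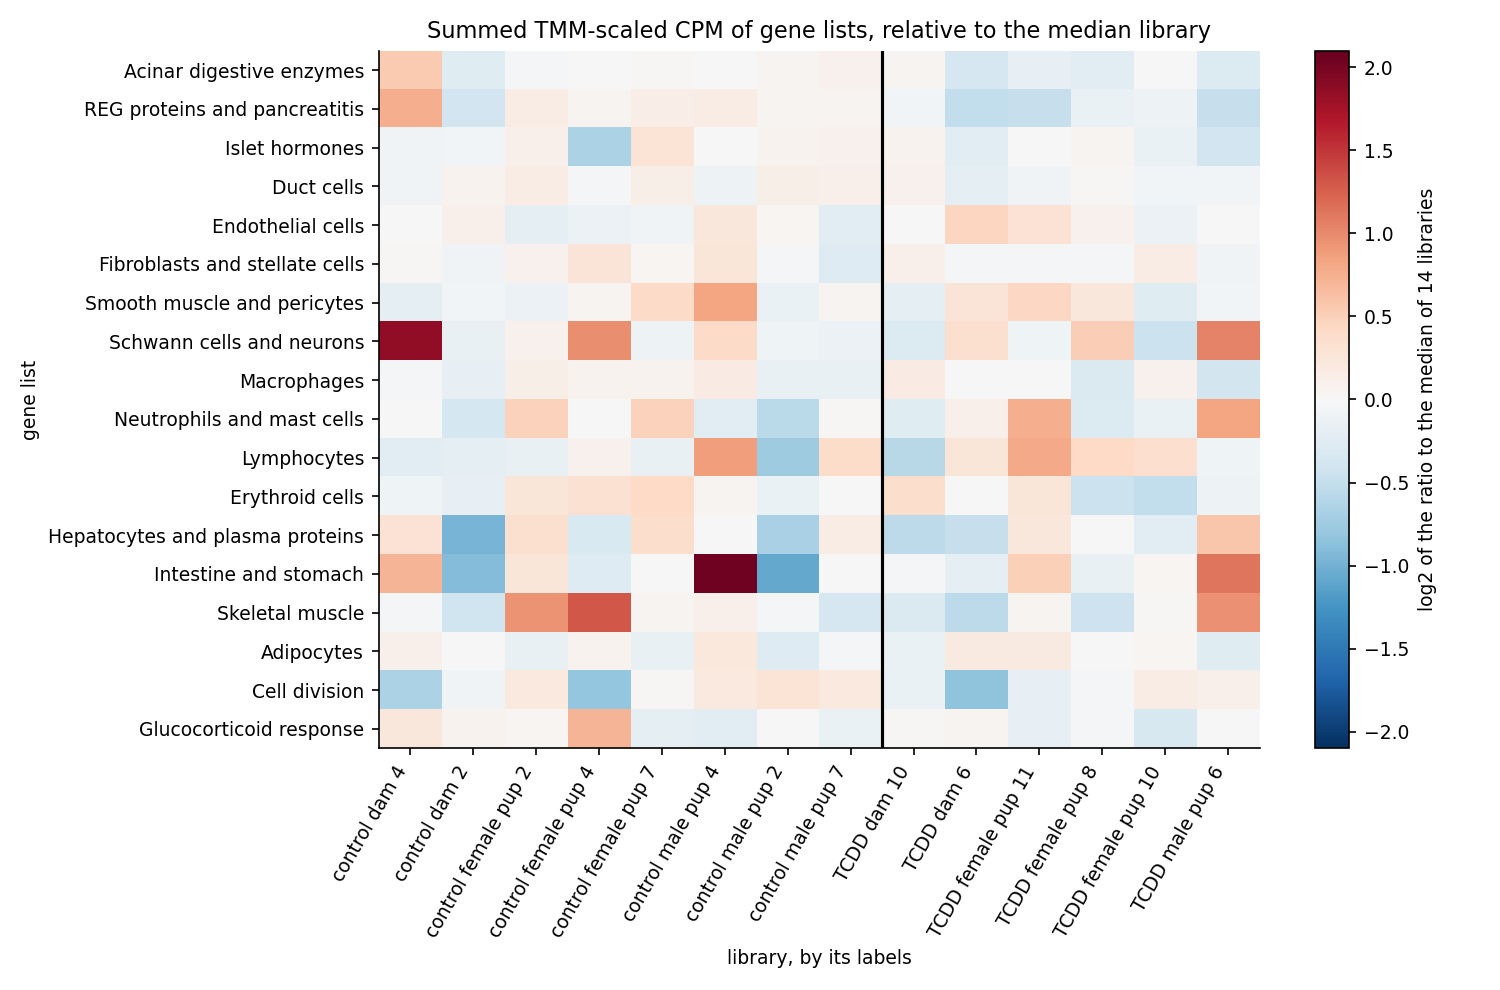
Summed TMM-scaled CPM of 18 gene lists (rows) in each newborn-type library (columns), as the log2 of its ratio to the median of the 14 libraries; the vertical line separates libraries labelled control (left) from those labelled TCDD (right). The strongest cells belong to single libraries, such as neuronal genes in control dam 4 (285 CPM) and intestinal genes in control male pup 4 (864 CPM).

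Markers of other tissues marked single libraries rather than a label. Summed intestinal genes were at 864 CPM in control male pup 4 and at 100 to 346 in the other control-labelled libraries, against 183 to 457 in the TCDD-labelled ones. In control male pup 4 the enterocyte lipid carrier gene Fabp2 was at 369 CPM, Rbp2 at 104 and Apoa4 at 306, and TCDD male pup 6 was next at 87.4, 20.6 and 94.5 CPM. Neuronal and Schwann cell genes summed to 285 CPM in control dam 4, to 71 to 155 in the other control-labelled libraries and to 57.6 to 162 in the TCDD-labelled ones, and Tubb3, a neuronal tubulin, was at 57.5 CPM in control dam 4. Liver plasma protein genes ran from 593 to 1510 CPM against 798 to 1760, and skeletal muscle genes from 37.6 to 125 against 34.4 to 98.7, with control female pup 4 the highest. The part of these genes in the label comparison was not tested, other than by leaving libraries out. Without control male pup 4 the acinar count was 6 of 27 lower (22.2%, beside 1.64% of all genes) and no gene was called.

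How far the libraries differed among themselves sets these results in scale. The SD of log2 CPM over the 14 libraries had a median of 0.18 among the 5727 genes at 10 CPM or more, exceeded 0.5 in 103 genes and exceeded 1 in 9. The Y-linked genes Ddx3y (SD 3.9) and Uty (3.85) led, followed by Gm47283 (chromosome Y, SD 2.77) and Gm21887 (chromosome X, 2.27). Next came Rbp2 (1.63), Fabp2 (1.58), Tubb3 (1.34) and Apoa4 (1.31). Tubb3 was highest in control dam 4 and the others in control male pup 4, and the source of these transcripts was not tested. AC132444.6 and Gm10717 were at 199 and 283 CPM in control female pup 2, the library with the most genes detected, and had medians of 9.51 and 33.8 CPM over all 14. The interferon-induced gene Ifit1 (0.98) and the X-linked gene Xlr3b (0.90) completed the 12.

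The first principal component, 19.9% of the variance of log2 CPM, was led at its high end by Gm47283 and Gm21887, on the sex chromosomes, followed by genes of cell division (among them Ccnb2, Birc5, Ccna2, Cdc20 and Plk1). At its low end were Tubb3, Stmn2, Lifr, Gnmt and Fkbp5 together with the Y-linked Ddx3y and Uty. Control female pup 4 (-15.3), control dam 4 (-11.4) and TCDD dam 6 (-10.7) lay lowest, and the other libraries lay between -5.1 and 9.9. TCDD-labelled libraries ran from -10.7 to 5.8 on it and control-labelled ones from -15.3 to 9.9. The second component, 17.6% of the variance, parted the libraries with Y-linked transcripts (3.5 to 8.2) from those without (-12.3 to -3.5). Beside Ddx3y and Uty it held plasma protein and granulocyte genes (Fgg, Serpina1b, S100a9, Camp) at its high end, and X-linked Kdm6a, Kdm5c and Eif2s3x at its low end. Libraries of both labels lay on both sides of both components.

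**Figure D5:**
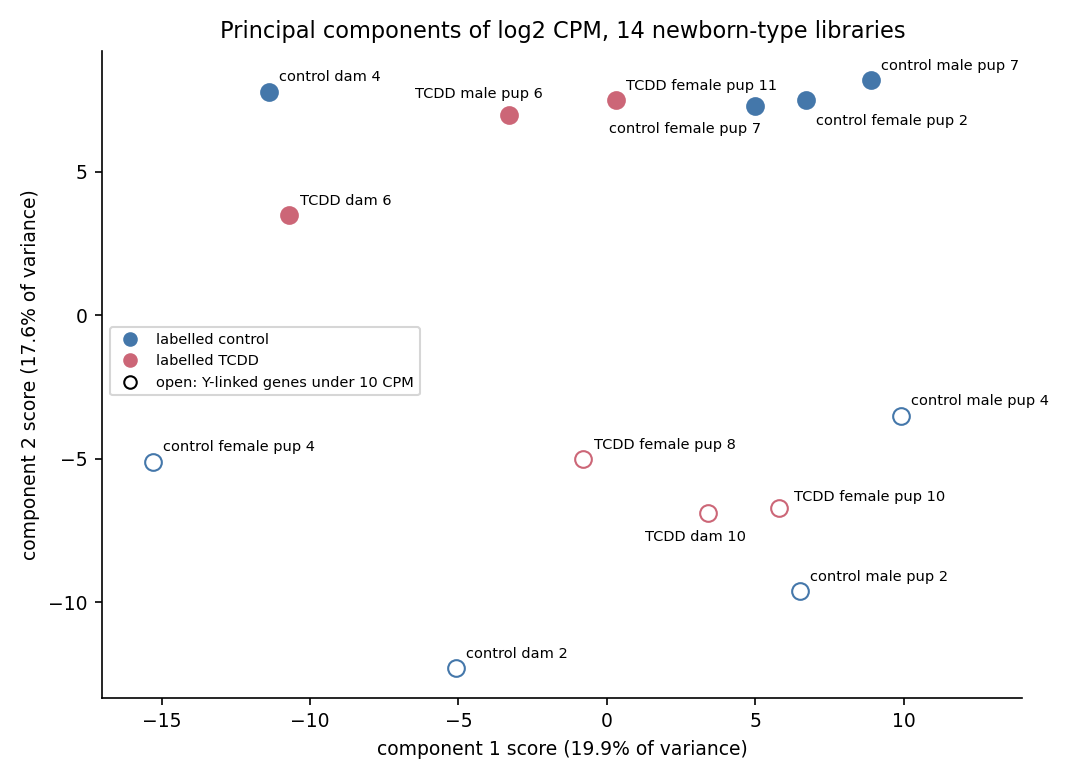
Scores of the 14 newborn-type libraries on the first (horizontal) and second (vertical) principal component of log2 CPM, coloured by chemical label and filled where Y-linked transcripts summed to 10 CPM or more. The second component separates filled from open points, and the 2 colours are mixed on both axes.

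Because the sex labels disagreed with Y-linked transcripts, the label difference was compared between the libraries with them (4 labelled control, 3 labelled TCDD) and without them (4 and 3). The difference of the 2 label effects passed the adjusted threshold in 0 of 12867 genes in edgeR, with 612 (4.76%) at an unadjusted p under 0.05 (2.61% higher and 2.15% lower), and in 0 genes in DESeq2 and limma-voom. The 4 genes with the smallest p were the collagen gene Col12a1 (difference 1.13 ± 0.271 on the log2 scale), Sympk (1.29 ± 0.327), the amylase gene Amy2a4 (-0.87 ± 0.228) and Hif3a (1.66 ± 0.434), at adjusted p of 0.945. Amy2a4 averaged 31900 CPM in control-labelled and 20100 in TCDD-labelled libraries with Y-linked transcripts, and 24500 and 28400 in those without.

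Values within the libraries with and without Y-linked transcripts follow for Reg1, Cpa1 and Ins2, which are only some of the fixed genes. The difference of label effects passed for none of them in the edgeR fit above, and they stand for no wider pattern. Reg1 had a label log2 fold change of -0.83 ± 0.171 in libraries with Y-linked transcripts and -0.09 ± 0.130 in those without, and Cpa1 -0.42 ± 0.185 and 0.04 ± 0.108. Ins2 was at -0.38 ± 0.134 and 0.06 ± 0.149. Control dam 4, the highest library for Reg1 (45500 CPM) and Cpa1 (32800 CPM), is among the control-labelled libraries with Y-linked transcripts. The difference for Reg1 passed the threshold only where no low-count filter was used (-0.73, adjusted p = 0.0403), 1 of 9 genes that passed there.

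The label effect was also set against that of the 8 adult-type libraries, of which 2 were labelled control and 6 TCDD. Both adult-type controls were labelled as dams (5 and 7). Of the adult-type TCDD-labelled libraries only dams 8 and 11 were, and the others were labelled as pups (female 6 and males 8, 10 and 11). The stage labels of these pups went against their RNA. Y-linked transcripts were absent in the males among them. The newborn-type minus adult-type difference passed in 0 of 13601 genes in edgeR, with 1182 (8.69%) at an unadjusted p under 0.05 (3.93% higher and 4.76% lower) and a smallest adjusted p of 0.11. DESeq2 called 14 genes and limma-voom 0. The smallest p-values belonged to Glycam1 and Ccl21a, genes of lymphoid tissue, the cyclin gene Ccne2 and the lymphocyte GTPase gene Gimap6. For Ccne2 the newborn-type means were 28.9 CPM (control-labelled) and 30 CPM (TCDD-labelled) and the adult-type means 18.7 and 7.09, scaled over all 22 libraries, a difference of 1.47 ± 0.288 (adjusted p = 0.11). For Ccl21a they were 9.24 and 11.5 against 26.7 and 2.72 CPM. The 2 adult-type controls were at 6.82 and 46.6 CPM for Ccl21a, and the adult-type libraries labelled TCDD ran from 0.148 to 8.09, so these groups overlapped. For Glycam1 the newborn-type means were 0.444 and 0.55 CPM, the 2 adult-type controls were at 0 and 40.1 CPM, and all 6 adult-type libraries labelled TCDD were at 0.

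The comparison was repeated in libraries with less conflict among their labels. In the 10 libraries labelled as pups, and in the 5 whose stage and sex labels both fitted, no gene was called. In those 5 libraries (2 labelled control, 3 labelled TCDD) Cyp1b1 differed by -0.05 ± 0.555 and Ahr by -0.42 ± 0.288, and Noxa1 by -0.35 ± 0.151. Tiparp lay above 0 under all 32 alternatives run, between 0.14 and 0.37 on the log2 scale and with no adjusted p under 0.486. Noxa1, Pipox, Reg3d and Reg1 lay below 0 under all 32. These last genes were among those with the smallest unadjusted p in the same libraries. The alternatives reuse those libraries, and 14 of the 32 leave out only 1. A constant sign was therefore likely from the start, and is no separate support for a difference, for Tiparp as well.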

How the data were processed

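Transcripts of whole pancreas were measured with TempO-Seq, a targeted probe assay, on an Illumina NextSeq500, per the labels' protocols. The submitters' processing notes name bcl2fastq 2.17.1.14. Neither an aligner nor a build is given in the sources used here. The authors deposited 1 table of raw counts, not normalized, for 30146 probes and 22 libraries. Counts are reads, with no molecular identifiers described.

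Probe counts were summed per gene (21450 genes, 6290 of them with several probes) and the 14 libraries with more Afp than Pnlip counts were kept. These libraries and the gene lists were chosen with earlier results of these data known. Label effects came from edgeR 4.0.16 under R 4.3.3 (quasi-likelihood test after filterByExpr and TMM, Benjamini-Hochberg adjustment, two-sided, threshold 0.05). Differences of effects were contrasts of 4 group means. Fold changes are log2 with the model's SE, and levels are CPM over the TMM-scaled library size. DESeq2 1.42 and limma 3.58.1 were alternatives. Summed list levels were described and not tested. Functions were tested on simulated data.

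Named genes were the 12 with the smallest unadjusted p, since fewer than 5 passed, 4 for each difference of effects, fixed AhR, islet, acinar, duct, division, REG, clock and imprinted genes, up to 4 abundant and 4 smallest-p members of each list, and the 12 most variable genes. Gm49388, L3hypdh, Cdk8 and Cog4 were named after their values were seen, because their groups did not overlap. Clps and H19 were not in the table, and some fixed or listed genes are not reported here. Replicates were separate animals by their labels, some with 1 litter number. All 91 pairs of libraries differed by more than counting noise (chi-square over its degrees of freedom at least 9.44).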

Additional observations from a re-analysis of the deposited data

Results flagged for a closer look

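Of 206 groups of values examined within a label, 25 had 1 library far from the nearest other relative to the group's range. Chance flags about 1 in 20 groups, and groups share libraries and genes. Control dam 4 held 10 of the 25. Its total was 34911410 counts, beside 16059530 for the next control-labelled library, and its 20 most abundant genes took 68.8% of counts, beside 60.9%. In it Reg1 was at 45500 CPM, Cpa1 at 32800 and Cela1 at 11600, and summed acinar enzymes were at 679000 CPM, REG genes at 47500, neuronal genes at 285 and cholesterol synthesis genes at 479, each the highest control-labelled value. Its Arntl, at 1.78 CPM, was the lowest.

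Control female pup 4 had the lowest Ins1 (210 CPM) and summed islet hormones (1410 CPM) of the control-labelled libraries and the highest glucocorticoid response genes (667 CPM). Control female pup 2 had counts in 19144 genes, beside at most 15514 in the other control-labelled libraries, and the highest Ucn3, at 0.227 CPM. Control male pup 4 had intestinal genes at 864 CPM, and control male pup 2 had Ahrr at 0.183 CPM, from 2 counts.

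Under the TCDD label, dam 6 had the lowest Noxa1 (21 CPM), Top2a (87.9 CPM) and Reg3b (0.284 CPM). Female pup 8 had the highest Ppy (228 CPM) and Ucn3 (0.284 CPM). Male pup 6 had the smallest total (13195400 counts), the highest Amy1 (38.5 CPM) and the highest skeletal muscle genes (98.7 CPM). No cause was tested for any of these.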

How the results depend on the processing

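The count of 0 genes for the label effect was the same under all alternatives run except DESeq2, which called 1 gene, Noxa1. Those alternatives included limma-voom, single probes, no low-count filter, library totals, subsets by label and Y-linked transcripts, and each library left out in turn (0 to 0 genes). The newborn-type minus adult-type difference was less settled: DESeq2 called 14 genes, library totals 3 and no low-count filter 3 (Glycam1, Ccne2 and Ccl21a in both of the last), and leaving out 1 library gave 0 to 49. It was 49 without control dam 5, 1 of only 2 adult-type controls, 15 without TCDD dam 8, 2 without TCDD male pup 11 and 1 without TCDD dam 6. The difference by Y-linked transcripts gave 9 genes with no low-count filter, and the cause was not tested. Among named genes, 128 values moved by more than 1 SE under an alternative and 1609 did not. The islet hormone list had 4 of 13 genes lower at an unadjusted p under 0.05 (30.8%) without the 3 libraries lowest in cell division (beside 2.15% of all genes), and 1 of 13 with all libraries. The cell division list had 9 of 34 there (26.5%) and 1 of 34 with all libraries. Cyp1b1 moved to 1.5 with limma-voom and to 1.59 without those 3 libraries.

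With dam or litter number as a random replicate block in limma-voom, 0 genes were called and the consensus correlation was 0.017. No number is shared between the labels, so the pairing is within a label. Number 2 stood on a dam, a female pup and a male pup label, all newborn-type, and so did number 4. Only 1 male and 1 female pup were taken of a litter, so the numbers are uncertain too. The correlation may therefore not measure litter. The 9 pairs of libraries with 1 number correlated at -0.33 to 0.29 in their deviations from group means, and 34 other pairs of 1 label at -0.54 to 0.17. Above 0.1 lay 4 of the 9 and 2 of the 34, and the medians were -0.19 and -0.21.

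Cyp1a1, Cyp1a2 and Ahrr had too few counts at this depth to pass the low-count filter of the main fit. They entered the fit without that filter, which called 0 genes. The chemical label is uncertain in every library, and its part in the count of 0 was not tested.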

Other observations

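Gm47283 and Gm21887 were lowest in the same 2 libraries, control female pup 4 (0 and 1.32 CPM) and TCDD female pup 8 (0.237 and 0.71 CPM), and at least at 12.5 and 26.4 CPM in the other 12. These were also the libraries without Y-linked transcripts by the 10 CPM line that had the highest Y-linked sums, 0.529 and 1.05 CPM, beside 0 to 0.0593 CPM in the other 5.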
